A study of Mus musculus with 32 samples.

Results

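The ISGs followed here are 10 mouse genes whose proteins restrict viruses at membranes or during entry and release: Ifitm1, Ifitm2, Ifitm3, Bst2, Ly6e, Rsad2, Mx1, Mx2, Lgals3bp and Lgals9. They were listed by name for that role, with earlier results of these data known, each symbol was matched to an Ensembl identifier, and all 10 were present among the 23035 genes of the footprint counts. For each gene the level without IFN-β, the early rise at 2 h and the late rise at 14 h were read from ribosome footprints, and total RNA of the same cultures was the other readout.

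Type I interferon binds its receptor at the cell surface and activates transcription factors that turn on ISGs through interferon-stimulated response elements (ISREs). A group of these genes acts on membranes: IFITM proteins and LY6E hinder the fusion of viral with cellular membranes, tetherin (Bst2) holds budding virions on the cell surface, and viperin (Rsad2) sits on the endoplasmic reticulum and lipid droplets. Mx proteins are dynamin-like GTPases that trap incoming viral components, and galectins are secreted proteins that bind glycans on viral and host surfaces. Stem cells are known for expressing some ISGs without any interferon, and IFITM genes are among them.

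The cells were neural stem cells (NSCs) isolated from the ventricular-subventricular zone (vSVZ) of wild-type C57BL/6 mice aged 8-12 weeks and grown ex vivo. They received vehicle (control) or IFN-β for 2 h or 14 h, and every culture, controls included, was exposed to cycloheximide for 5 min before lysis. Each of the 4 groups held 4 cultures, and each culture gave a footprint and a total RNA library, so 32 libraries were used. The 2 h and 14 h groups were separate sets of cultures, so that exposure time and set of cultures cannot be told apart wherever levels are set side by side across times. Ribo-Seq sequences the RNA fragments shielded by ribosomes, and a footprint count is a number of such reads in the coding sequence (CDS) of a gene. Footprint libraries held 4956144 to 9361609 counts at 2 h and 2956297 to 10505108 at 14 h.

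All 8 NSC markers, Nes and Sox2 among them, had footprints in every group, with summed levels of 11384 to 18317 CPM per library, where CPM are counts scaled to a library total of 1000000. Markers of other cell types that such a culture could hold were read as well. The 4 markers of neuroblasts and neurons summed to 47.9 to 115 CPM per library, mostly from Tubb3 at 41.9 to 109 CPM. The 8 microglial markers summed to 0.559 to 4.36 CPM in vehicle and 1.02 to 3.15 CPM with IFN-β at 2 h, and to 5.94 to 8.61 and 20.9 to 26.6 CPM at 14 h. Nearly all of the microglial sum was P2ry12, at 5.57 to 8.28 CPM in vehicle and 20.4 to 26.0 CPM with IFN-β at 14 h. Of the other 7 microglial markers, Aif1, Cx3cr1, Trem2 and C1qa had 0 counts in all 4 groups, and Csf1r, Ptprc and Tmem119 had at most 10 counts in any group. The 6 endothelial markers summed to at most 23.8 CPM in vehicle and 41.3 CPM with IFN-β at 2 h, where Kdr had 206 and 452 counts, and to 13.8 to 17.3 and 15.4 to 20.3 CPM at 14 h, and Cldn5 had 0 counts in 3 groups. Oligodendrocyte markers reached 19.4 CPM at most and those of mural cells and fibroblasts 2.66 CPM. The part of such cells in the results was not tested. In bulk libraries, fewer cells that express a gene and less RNA per cell cannot be told apart. Libraries of number 3 at 2 h stood apart in both arms: their log2 CPM had a median correlation of 0.958 and 0.959 with the rest of their group, where each other 2 h library had 0.990 or 0.991.

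Promoters are shown so that genes with and without an ISRE core can be set beside their rise. Sequences of 250 bases before to 50 after the annotated start were taken from RefSeq on GRCm38.p6, where 7 of the 10 genes were matched, all but Ly6e, Mx1 and Mx2. Capitals mark the ISRE core GAAANNGAAA, or TTTCNNTTTC where it lies on the other strand.
Ifitm1 promoter, chr7:140967826-140968125, plus strand: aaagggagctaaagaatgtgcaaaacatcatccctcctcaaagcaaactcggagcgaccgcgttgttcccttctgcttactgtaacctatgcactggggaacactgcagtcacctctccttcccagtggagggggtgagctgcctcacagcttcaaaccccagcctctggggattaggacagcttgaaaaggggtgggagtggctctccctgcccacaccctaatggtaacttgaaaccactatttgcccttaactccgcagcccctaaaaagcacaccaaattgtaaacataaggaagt
Ifitm2 promoter, chr7:140955912-140956211, minus strand: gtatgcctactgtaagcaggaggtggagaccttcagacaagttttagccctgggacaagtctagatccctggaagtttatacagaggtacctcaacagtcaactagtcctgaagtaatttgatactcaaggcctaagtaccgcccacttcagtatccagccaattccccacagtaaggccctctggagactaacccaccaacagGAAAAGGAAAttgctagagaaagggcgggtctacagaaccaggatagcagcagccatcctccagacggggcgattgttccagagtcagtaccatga
Ifitm3 promoter, chr7:141010695-141010994, minus strand: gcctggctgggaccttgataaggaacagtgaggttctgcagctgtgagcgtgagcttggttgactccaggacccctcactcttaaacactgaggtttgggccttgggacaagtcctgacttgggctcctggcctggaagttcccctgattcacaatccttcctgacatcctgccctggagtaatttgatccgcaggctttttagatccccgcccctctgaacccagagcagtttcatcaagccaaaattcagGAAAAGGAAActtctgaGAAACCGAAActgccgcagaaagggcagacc
Bst2 promoter, chr8:71537423-71537722, minus strand: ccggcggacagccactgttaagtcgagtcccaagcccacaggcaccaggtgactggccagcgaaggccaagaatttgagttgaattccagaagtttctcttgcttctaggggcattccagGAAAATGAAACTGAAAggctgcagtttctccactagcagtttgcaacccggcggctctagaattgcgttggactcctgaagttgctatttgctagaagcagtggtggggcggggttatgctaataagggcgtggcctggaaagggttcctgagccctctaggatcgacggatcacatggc
Rsad2 promoter, chr12:26456403-26456702, minus strand: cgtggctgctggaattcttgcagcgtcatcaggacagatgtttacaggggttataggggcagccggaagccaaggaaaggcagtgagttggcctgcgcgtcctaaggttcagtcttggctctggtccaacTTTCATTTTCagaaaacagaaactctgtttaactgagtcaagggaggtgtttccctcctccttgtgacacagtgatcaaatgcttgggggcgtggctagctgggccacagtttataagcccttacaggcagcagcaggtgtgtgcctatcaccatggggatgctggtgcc
Lgals3bp promoter, chr11:118401910-118402209, minus strand: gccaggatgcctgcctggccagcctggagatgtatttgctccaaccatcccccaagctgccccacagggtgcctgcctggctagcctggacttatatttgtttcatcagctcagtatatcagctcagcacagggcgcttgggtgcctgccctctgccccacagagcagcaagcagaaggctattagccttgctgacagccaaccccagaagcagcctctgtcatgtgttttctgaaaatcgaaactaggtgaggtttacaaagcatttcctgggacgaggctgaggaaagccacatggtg
Lgals9 promoter, chr11:78984875-78985174, minus strand: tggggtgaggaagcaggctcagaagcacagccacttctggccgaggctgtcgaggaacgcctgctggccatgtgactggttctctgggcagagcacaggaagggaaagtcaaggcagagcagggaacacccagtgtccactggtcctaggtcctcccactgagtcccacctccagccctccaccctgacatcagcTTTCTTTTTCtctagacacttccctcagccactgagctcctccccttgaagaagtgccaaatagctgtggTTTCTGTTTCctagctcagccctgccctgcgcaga
The core was found in 5 of the 7 promoters, and in 3.44% of 32851 mouse promoters of the same length. Positions are counted from 0 at the start site, negative upstream, and give the leftmost base of a match. Ifitm2 had a match at -46 and Ifitm3 had matches at 2 and 19, both downstream of the annotated start. In Bst2, matches at -130 and -124 overlapped. Rsad2 held a match at -120, and Lgals9 held matches at -55 and 15. No match was present in this window of Ifitm1 or Lgals3bp. The Ifitm1 window begins at 140967826, inside the gene as annotated at chr7:140967221-140969825, so sequence upstream of that gene start was not searched. Such matches describe letters in a window and are not evidence of binding.

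In vehicle-treated NSCs the 10 genes spanned a wide range of footprint density, and the order was led by Ifitm3, Ifitm2 and Ly6e. To compare genes, levels are given per length, as CPM per kilobase of CDS. The IFITM genes share sequence with other genes, as given below, so their levels and places, those of Ifitm2 above all, are uncertain. At 2 h, the level of Ifitm3 in vehicle was 289 ± 48.1 CPM per kb (SD, n = 4), that of Ifitm2 95.0 ± 4.41 and that of Ly6e 68.5 ± 8.71. Ifitm1 stood at 23.8 ± 4.23 CPM per kb and Lgals3bp at 20.0 ± 2.77, with overlapping ranges. Rsad2 and Bst2 followed at 6.06 ± 2.79 and 5.97 ± 4.21 CPM per kb and also overlapped. Mx2 at 0.482 ± 0.0571, Lgals9 at 0.429 ± 0.101 and Mx1 at 0.119 ± 0.0921 CPM per kb were lowest, and the ranges of Mx2 and Lgals9 overlapped. In the 14 h vehicle cultures the same 5 genes led in the same order, again with Ifitm1 and Lgals3bp overlapping, whereas Bst2 at 3.73 ± 1.03 CPM per kb lay above Rsad2 at 1.28 ± 0.384, with ranges that did not meet. Ifitm3 was at 205 ± 35.5 CPM per kb in these cultures, and Mx1 had 0 counts in all 4 libraries. A count of 0 over these libraries allows up to 3 counts at this depth.

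**Figure D1:**
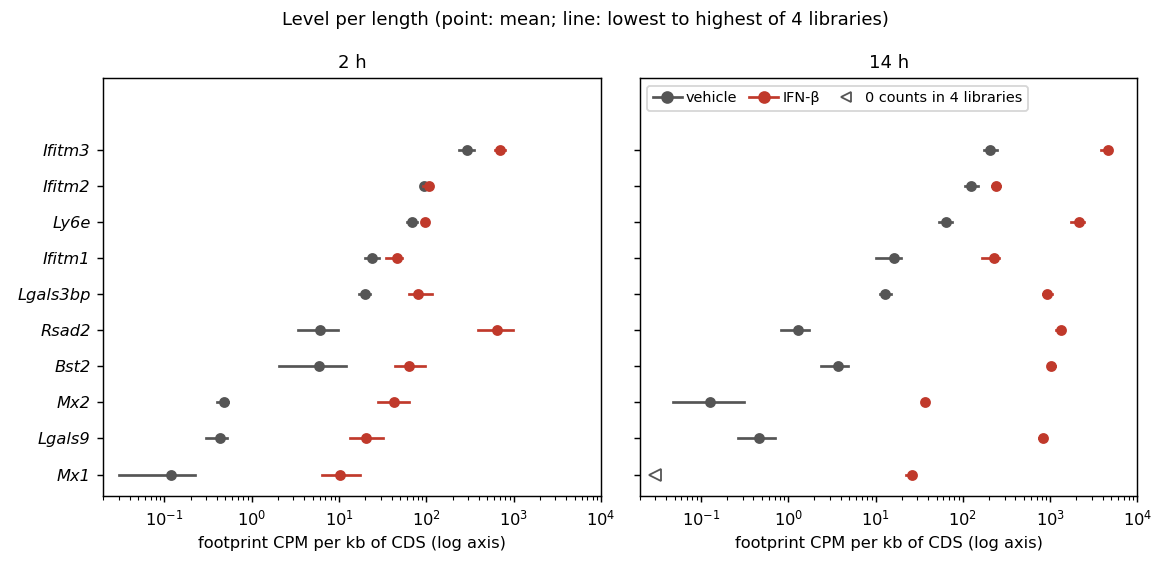
Footprint CPM per kilobase of CDS on a log axis for the 10 genes at 2 h (left) and 14 h (right), in vehicle (grey) and IFN-β (red). Points are means and lines run from the lowest to the highest of 4 libraries; Mx1, with 0 counts in vehicle at 14 h, is drawn as an open triangle at the left edge, and a lowest value of 0 is drawn at the same edge. The mean of Ifitm3 was highest in all 4 groups, with a range that overlapped that of Rsad2 with IFN-β at 2 h; it ran from 205 CPM per kb in vehicle to 4541 CPM per kb with IFN-β at 14 h.

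IFN-β raised footprints of 9 of the 10 genes at 2 h, and none was lower. Over all 12104 genes tested at 2 h, 5.25% were called higher and 2.01% lower (edgeR's quasi-likelihood test, Benjamini-Hochberg adjusted p under 0.05). At 14 h all 10 genes were higher, against 26.2% of 12113 genes called higher and 26.3% called lower. The median log2 fold change of the 10 genes was 2.71 at 2 h and 7.15 at 14 h, beside -0.0153 and 0.00267 over all genes tested. The scaling of libraries holds most genes near no change, so all levels and folds here are relative to other genes. The paper reports that global protein synthesis fell after long IFN-β exposure, and absolute ribosome output was not measured here. Each IFN-β library lay above each vehicle library for 9 genes at 2 h, all but Ifitm2, and for all 10 at 14 h. Such separation was found for 7.68% of all genes tested at 2 h and 23.4% at 14 h. Mx1 and Lgals9 at 2 h, and these and Mx2 at 14 h, had fewer than 10 counts in every vehicle library. They met the filter on low counts through IFN-β libraries alone. Their calls and separation were close to fixed by it and add no support to these counts and medians. Every other gene had a vehicle library with 10 counts or more. With the replicate number as a block, 3538 genes were called in either direction at 2 h in place of 878, and the count among the 10 genes stayed at 9. By direction, the block called 1920 of 12104 genes higher and 1618 lower at 2 h. At 14 h it called 3854 of 12113 higher and 3760 lower, with all 10 genes higher.

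**Figure D2:**
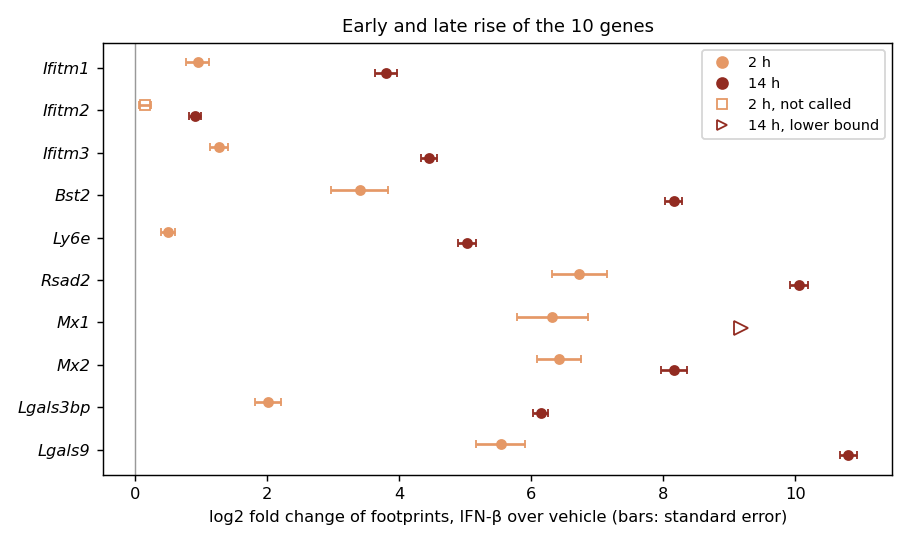
Log2 fold change of footprints, IFN-β over vehicle, for each gene at 2 h (orange) and 14 h (dark red), with bars for the standard error over 4 against 4 libraries. The open square marks Ifitm2 at 2 h, which was not called, and the open triangle the lower bound of Mx1 at 14 h, whose vehicle libraries had 0 counts. Changes at 2 h run from 0.16 for Ifitm2 to 6.73 for Rsad2, and every gene lies further right at 14 h.

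The genes of the IFITM cluster (GRCm38, chr7:140954837-140955987 for Ifitm2, chr7:140967221-140969825 for Ifitm1 and chr7:141009586-141010770 for Ifitm3) responded to different degrees. Ifitm3, which acts mainly in endosomal membranes, had 119, 96.5, 116 and 145 CPM in the vehicle libraries of 2 h (replicates 2, 3, 5 and 6) and 286, 282, 251 and 330 CPM with IFN-β. At 14 h (replicates 1 to 4) it had 71.7, 72.6, 90.1 and 102 CPM in vehicle and 1590, 1966, 1931 and 1979 CPM with IFN-β. The groups did not overlap at either time, and replicate 1 was the lowest of the IFN-β libraries at 14 h. Its log2 fold change was 1.28 ± 0.131 (SE) at 2 h, or 2.42-fold (edgeR adjusted p = 0.000288), and 4.46 ± 0.12, or 22.0-fold, at 14 h (edgeR adjusted p = 3.36e-12). Ifitm1, found mostly at the plasma membrane, had 6.38, 6.57, 8.07 and 9.23 CPM in vehicle and 16.8, 14.9, 11.0 and 15.6 CPM with IFN-β at 2 h. The values at 14 h were 3.23, 4.79, 6.19 and 6.27 CPM in vehicle and 53.4, 83.4, 79.2 and 75.6 CPM with IFN-β. Ifitm1 therefore showed a small early and a larger late separation: 1.93-fold at 2 h (log2 0.95 ± 0.179, edgeR adjusted p = 0.0107) and 13.9-fold at 14 h (log2 3.80 ± 0.167, edgeR adjusted p = 7.2e-10).

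Ifitm2, the relative of Ifitm3 that shares its endosomal site, changed least of the 10. Its footprints at 2 h were 40.9, 43.8, 39.4 and 40.1 CPM in vehicle and 39.4, 49.2, 46.3 and 48.3 CPM with IFN-β, and these ranges overlapped. The log2 difference of 0.16 ± 0.092 was not called (edgeR adjusted p = 0.463). At 14 h the values were 46.1, 55.4, 50.9 and 64.2 CPM in vehicle and 94.0, 107, 94.9 and 115 CPM with IFN-β. All 4 IFN-β libraries were then above all vehicle libraries, a 1.88-fold rise (log2 0.91 ± 0.0966, edgeR adjusted p = 4.92e-06). The IFITM genes are alike in sequence, which limits how well short reads are assigned. Of the 28-base stretches of CDS, 48.5% in Ifitm1, 83.2% in Ifitm2 and 38.8% in Ifitm3 also occur in transcripts of other annotated genes, and 246 of the 432 bp of Ifitm2 CDS lie in exons of Gm45717 on the same strand, so the level of Ifitm2 is uncertain.

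Ly6e and Bst2 encode small proteins tied to the membrane by a lipid anchor, and their time courses differed. Ly6e (chr15:74955051-74959905) limits membrane fusion by coronaviruses and other viruses. Its vehicle libraries of 2 h held 33.7, 27.7, 28.2 and 35.7 CPM, and those with IFN-β held 42.9, 46.0, 42.1 and 46.3 CPM. The groups did not overlap, yet the early rise was small, at 1.42-fold (log2 0.50 ± 0.101, edgeR adjusted p = 0.015). It was no longer called without IFN-β replicate 6 (adjusted p = 0.0576) or without vehicle replicate 5 (adjusted p = 0.0548). At 14 h, 24.2, 27.6, 31.1 and 34.7 CPM in vehicle stood against 791, 911, 1062 and 1122 CPM with IFN-β. This late rise was 32.6-fold (log2 5.03 ± 0.134, edgeR adjusted p = 2.96e-12) and moved Ly6e to the second highest level per length, 2126 ± 327 CPM per kb, after Ifitm3 at 4541 ± 451.

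Bst2 (chr8:71534255-71537456) encodes tetherin, whose ends are both anchored in membranes so that it can link a virion to the cell. In the 2 h cultures it had 2.76, 6.15, 1.06 and 2.34 CPM in vehicle and 28.7, 49.6, 29.2 and 22.9 CPM with IFN-β. Replicate 3 was the highest library in both arms. The same held at 2 h for Ifitm2, Rsad2, Mx1 and Lgals3bp, and with IFN-β alone for Mx2 and Lgals9. It did not hold in both arms for Ifitm1, Ifitm3 or Ly6e. At 14 h the values of Bst2 were 2.51, 2.09, 1.86 and 1.23 CPM in vehicle and 492, 571, 486 and 586 CPM with IFN-β. Bst2 thus rose 10.6-fold early (log2 3.41 ± 0.430, edgeR adjusted p = 0.00106) and 285-fold late (log2 8.16 ± 0.134, edgeR adjusted p = 4.02e-14). Its vehicle counts were 8 to 44 per library at 2 h and 13 to 21 at 14 h, so the folds rest on few reads in the controls. No 28-base stretch of its CDS occurs in transcripts of another annotated gene.

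Rsad2 (chr12:26442746-26456452) encodes viperin, a radical SAM enzyme that makes a chain-terminating nucleotide and disturbs the budding of some viruses. Its early rise was the largest by estimate, though within the standard errors of those of Mx1 and Mx2. Its vehicle libraries of 2 h held 7.54, 11.0, 3.84 and 5.10 CPM, and those with IFN-β held 643, 1120, 717 and 446 CPM. At 14 h, 1.97, 1.30, 1.61 and 0.949 CPM in vehicle stood against 1326, 1469, 1585 and 1618 CPM with IFN-β. The early rise was 106-fold (log2 6.73 ± 0.415, edgeR adjusted p = 9.55e-06) and the late rise 1067-fold (log2 10.06 ± 0.136, edgeR adjusted p = 9.39e-15). Both levels of a pair moved between times: the IFN-β mean at 14 h was 2.05 times that at 2 h, and the vehicle mean was 0.212 times, with no overlap of the ranges in either case.

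Mx1 (chr16:97447035-97462907) and Mx2 (chr16:97535308-97560900) were near 0 in vehicle and were read by ribosomes with IFN-β. Background on the strain matters here, because C57BL/6 mice carry a deletion in Mx1 and the annotation lists Mx2 as a polymorphic pseudogene, so these footprints say nothing of active protein. Mx2 had 1.06, 0.979, 0.794 and 0.964 CPM in the vehicle libraries of 2 h, from 6 to 10 counts each, and 55.4, 126, 83.3 and 68.7 CPM with IFN-β. In the 14 h cultures it had 0.179, 0.0997, 0.619 and 0.0949 CPM in vehicle, from 1 to 5 counts each, and 67.5, 73.0, 75.8 and 71.4 CPM with IFN-β. The level with IFN-β was thus similar at both times and the ranges overlapped. The fold was 85.7 at 2 h (log2 6.42 ± 0.332, edgeR adjusted p = 3.26e-06) and 287 at 14 h (log2 8.16 ± 0.194, edgeR adjusted p = 8.88e-13). Without vehicle replicate 3, which held 5 of the 8 vehicle counts, the log2 change at 14 h was 9.10.

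For Mx1, the vehicle libraries of 2 h had 2, 3, 2 and 0 counts, and the IFN-β libraries had 96, 161, 122 and 93 counts, or 12.1, 32.9, 17.0 and 15.4 CPM. At 14 h each vehicle library had 0 counts, against 126, 368, 356 and 466 counts with IFN-β, or 42.3, 52.7, 52.7 and 50.0 CPM. The rise was 79.9-fold at 2 h (log2 6.32 ± 0.534, edgeR adjusted p = 7.75e-05). At 14 h it was at least 576-fold, taken against a floor of 3 counts over the vehicle group (edgeR adjusted p = 3.34e-10). Of the 28-base stretches of CDS, 16.1% in Mx1 and 16.2% in Mx2 are shared between these 2 genes, so part of their reads could not be told apart.

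Lgals9 and Lgals3bp, a galectin and a secreted glycoprotein that binds galectins, both rose further at 14 h. Lgals9 (chr11:78962974-78984946), a ligand of the receptor TIM-3, had 3 or 4 counts in each vehicle library of 2 h (0.319, 0.419, 0.529 and 0.551 CPM) and 17.6, 33.9, 20.9 and 14.3 CPM with IFN-β. At 14 h it had 3 to 6 counts in each vehicle library (0.538, 0.399, 0.743 and 0.285 CPM) and 799, 894, 877 and 909 CPM with IFN-β. Its rise went from 46.4-fold (log2 5.54 ± 0.374, edgeR adjusted p = 1.78e-05) to 1782-fold (log2 10.80 ± 0.127, edgeR adjusted p = 6.05e-15). The late fold rests on 16 vehicle counts in all.

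Lgals3bp (chr11:118392751-118402092) was present without IFN-β, at 37.6, 39.6, 29.5 and 31.5 CPM in the 2 h vehicle libraries, and had 130, 202, 118 and 110 CPM with IFN-β. The 14 h vehicle libraries held 22.2, 19.6, 20.9 and 26.0 CPM and those with IFN-β 1432, 1500, 1603 and 1798 CPM. The groups were apart at both times, with a 4.05-fold rise at 2 h (log2 2.02 ± 0.201, edgeR adjusted p = 0.000237) and a 70.8-fold rise at 14 h (log2 6.15 ± 0.109, edgeR adjusted p = 5.44e-14).

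**Figure D3:**
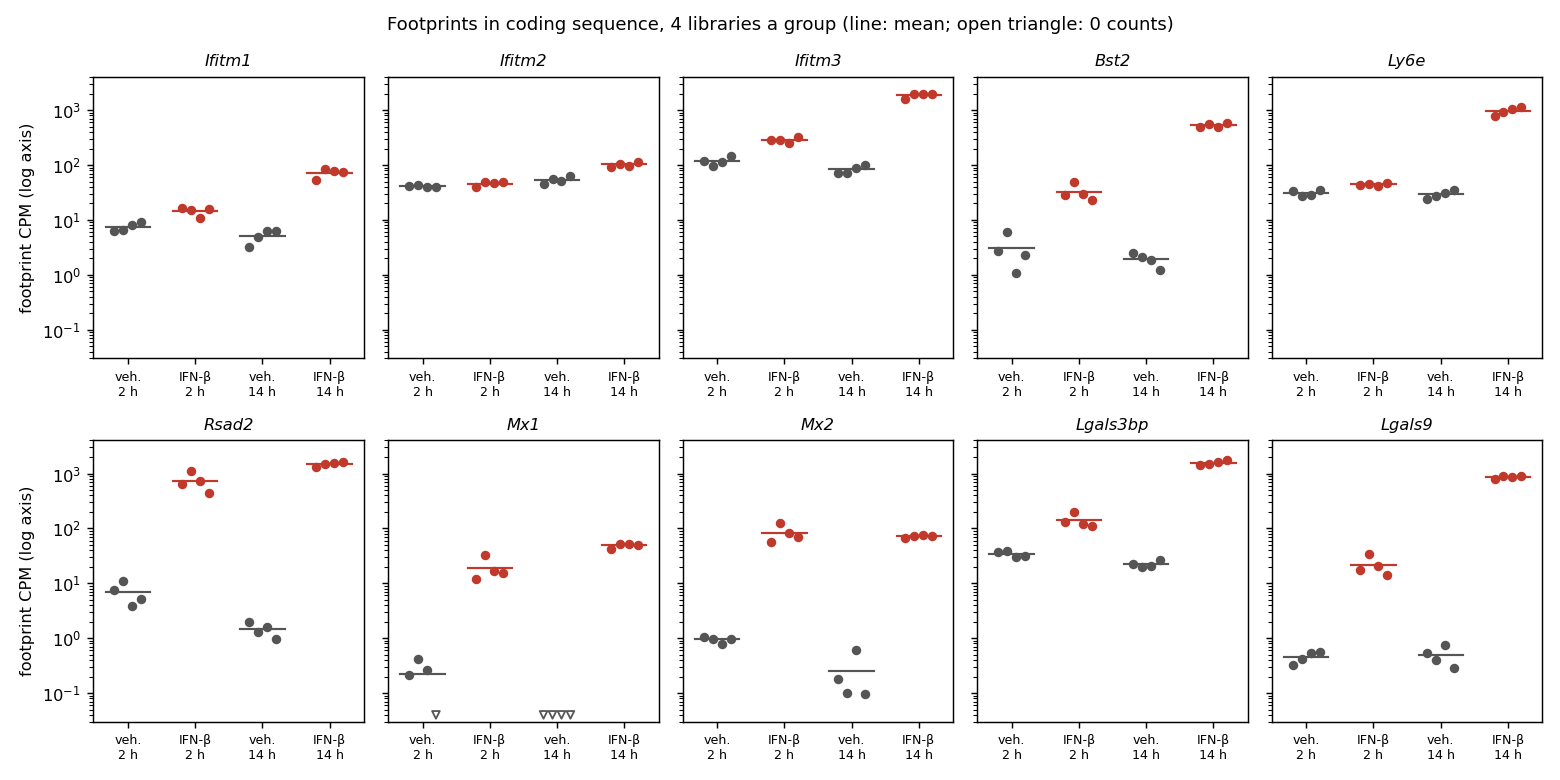
Footprint CPM on a log axis for each gene in the 4 libraries of each group, vehicle in grey and IFN-β in red, with lines at the means; open triangles mark libraries with 0 counts. All groups were apart within a time but for Ifitm2 at 2 h, and Mx2 with IFN-β had overlapping ranges at 2 h and 14 h.

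Whether the late rise exceeded the early rise was asked of all 16 footprint libraries at once, with a term for the treatment effect at 14 h minus that at 2 h. The difference was called for 9 of the 10 genes, all with a larger rise at 14 h, beside 15.4% of 12508 genes called higher and 15.5% called lower. The median difference of the 10 genes on the log2 scale was 3.74, beside 0.0153 over all genes. Mx1 and Lgals9 met the filter on low counts through IFN-β libraries alone and add no support to this count and median. The difference was 4.54 ± 0.181 for Ly6e (edgeR adjusted p = 1.44e-10), 3.20 ± 0.193 for Ifitm3 (adjusted p = 1.42e-08) and 4.14 ± 0.241 for Lgals3bp (adjusted p = 8.57e-09). Ifitm1 differed by 2.85 ± 0.276, Bst2 by 4.76 ± 0.517, Lgals9 by 5.28 ± 0.789, Rsad2 by 3.33 ± 0.482 and Ifitm2 by 0.77 ± 0.145, with edgeR adjusted p from 1.77e-06 to 0.000878. For Mx1 no size is given because vehicle held 0 counts at 14 h. Its call (edgeR adjusted p = 0.0358) was lost in 6 of the fits that left out 1 vehicle library, with adjusted p up to 0.115. The difference for Mx2 was 1.75 ± 0.714 and was not called (edgeR adjusted p = 0.073). With the replicate number as a block, 6941 genes were called in place of 3866, and Mx2 was among them (log2 1.79, adjusted p = 0.00476), and likewise with DESeq2 (adjusted p = 0.0215), without both libraries of number 3 at 2 h (adjusted p = 0.0132) and without vehicle replicate 3 at 14 h (adjusted p = 0.0266).

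A fold can grow because the treated level is higher or because the control is lower, so both levels are given side by side without a test. With IFN-β, all 4 libraries of 14 h lay above all 4 of 2 h for 9 genes, and Mx2 was the exception, with a mean at 14 h 0.862 times that at 2 h. The mean ratio of 14 h to 2 h was 40.2 for Lgals9, 21.9 for Ly6e, 16.4 for Bst2, 11.3 for Lgals3bp and 6.50 for Ifitm3. It was 5.00 for Ifitm1, 2.55 for Mx1, 2.24 for Ifitm2 and 2.05 for Rsad2. In vehicle, 14 h lay wholly below 2 h for Ifitm1, Rsad2, Mx2 and Lgals3bp, with ratios of 0.677, 0.212, 0.261 and 0.642, and wholly above for Ifitm2 with a ratio of 1.32. The other 5 genes had overlapping vehicle ranges. For Rsad2, then, the lower vehicle level was the larger part of the difference between folds. By its means the same held for Mx2, but its vehicle groups had 30 counts at 2 h and 8 at 14 h. Its difference between folds was also not called in the main fit. For Ly6e, with a vehicle ratio of 0.939, and Lgals9, with 1.08, nearly all of the difference was the level with IFN-β.

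Total RNA counts of these genes were low against their footprints, also once scaled for depth. Mean CPM over the 16 total RNA libraries was 0.272% to 7.29% of mean footprint CPM across the 10 genes, and for Ifitm3 0.743 CPM in total RNA stood against 119 CPM in footprints in vehicle at 2 h. The gap was general: the median was 3.25% over 4649 genes with 50 or more footprint CPM, and Sox2 and Vim, at 274 and 4662 CPM in footprints, had 0 and 6.50 CPM in total RNA. Genes annotated as antisense took 15.0% of the total RNA counts. The kit keeps strand and the strand setting of the counting is not given in the sources used here, so it was not tested whether these counts measure the sense mRNA, and all values of total RNA and TE below carry that limit. The libraries held 3992402 to 7877753 counts at 2 h and 1370008 to 2737111 at 14 h, and the 4 vehicle libraries together had 0 to 17 counts per gene at 2 h and 0 to 6 at 14 h. At most 3 vehicle counts were available for 6 genes at 2 h and 8 genes at 14 h. Mean CPM was higher with IFN-β for all 10 genes at both times, within the spread of the libraries for some (Ifitm1 at 14 h had 0.391 ± 0.542 and 0.504 ± 0.196 CPM). For Ifitm1 the fit without a count filter gave a log2 change of -0.0313 at 14 h. Only Ly6e and Mx2 at 2 h and Ly6e and Ifitm3 at 14 h reached the minimum of 10 counts in 4 libraries. None of their vehicle libraries reached 10 counts, so each of these genes entered through its IFN-β libraries alone. Each was called higher, which was close to fixed by that filter and adds no support. Over all genes, 0.722% of 11639 were called higher at 2 h and 3.47% of 7520 at 14 h. Mx2 had 1, 4, 2 and 1 counts in vehicle and 59, 75, 42 and 14 with IFN-β at 2 h (log2 4.27 ± 0.528, edgeR adjusted p = 0.00137). Ifitm3 had 2, 1, 0 and 3 counts in vehicle and 16, 12, 17 and 11 with IFN-β at 14 h (log2 2.70 ± 0.449, edgeR adjusted p = 0.00107). Rsad2, which was not tested, had 97, 241, 43 and 8 counts with IFN-β at 2 h against 0, 2, 0 and 0 in vehicle, and IFN-β replicate 6 was the lowest there for Rsad2, Mx1 and Mx2 alike.

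**Figure D4:**
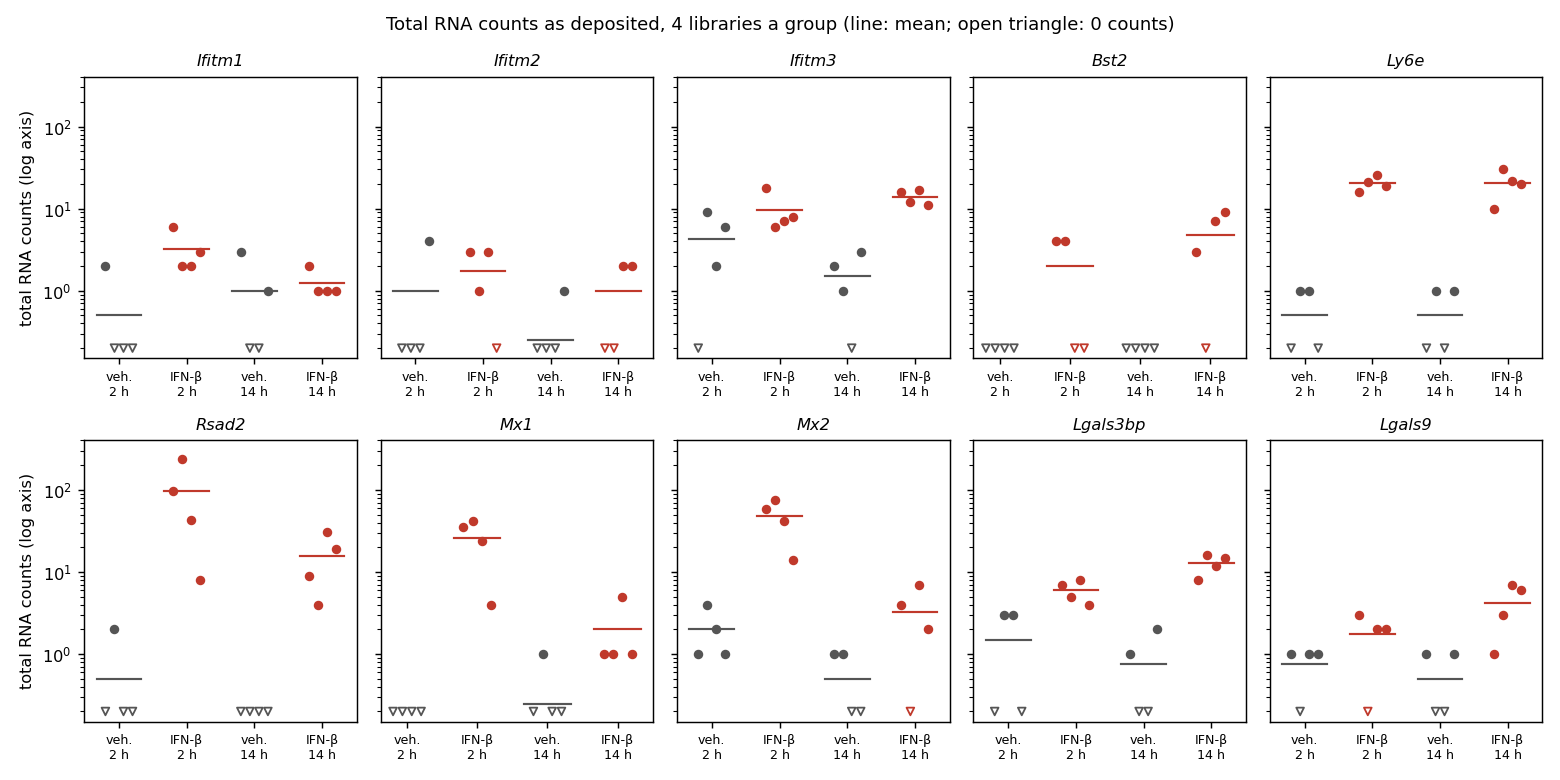
Total RNA counts as deposited, on a log axis, in the 4 libraries of each group, vehicle in grey and IFN-β in red, with lines at the means; open triangles mark libraries with 0 counts. Most vehicle libraries hold 0 to 4 counts per gene, and Ly6e with IFN-β has 16 to 26 counts at 2 h and 10 to 30 at 14 h.

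Ly6e is given for both readouts. At 2 h its total RNA had 0, 1, 1 and 0 counts in vehicle and 16, 21, 26 and 19 with IFN-β, a ratio of 35.8 with a 95% exact interval of 9.61 to 301 that covers counting error only (edgeR adjusted p = 0.00179). Footprints of the same cultures rose 1.42-fold. At 14 h total RNA had 0, 1, 0 and 1 counts in vehicle and 10, 30, 22 and 20 with IFN-β, a ratio of 30.7 with an interval of 8.23 to 258 (edgeR adjusted p = 0.000206), beside the 32.6-fold rise of footprints. Translation efficiency (TE), the footprint change relative to the total RNA change, was called lower for Ly6e at 2 h (edgeR adjusted p = 0.000182 at a threshold of 0.1). It was the only call among the 10 genes, beside 0.815% of 14115 genes called in either direction, and it rests on 2 vehicle counts of total RNA. At 14 h TE was called higher for Ifitm1, Mx1, Mx2 and Lgals9, beside 8.39% of 13447 genes called. Vehicle total RNA held 4, 1, 2 and 2 counts for these genes, and IFN-β total RNA 5, 8, 13 and 17, so no size is given. Mx1, Mx2 and Lgals9 met the filter on low counts through IFN-β footprint libraries alone. Their calls therefore add no support, also where they lasted without 1 culture. Leaving out 1 culture ended the calls of Ifitm1, Mx1 and Mx2 (adjusted p up to 0.625, 1.0 and 0.353).

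Relatives of the 10 genes by family, namely other IFITM, LY6, galectin and dynamin-like genes, were counted beside them. Of 22 relatives 14 were tested at 2 h and none was called, with a median log2 fold change of -0.0057. At 14 h 10 of 17 tested were higher and none lower, with a median of 0.34, beside 26.2% higher and 26.3% lower over all genes tested. The largest rises were in Ly6a, which encodes the surface antigen Sca-1, from 1 to 2 vehicle counts per library to 161 to 587 with IFN-β (log2 8.33 ± 0.181, edgeR adjusted p = 3.71e-13), and in Ly6c1, from 2 to 7 counts to 79 to 281 (log2 6.29 ± 0.212, adjusted p = 4.22e-11). Ly6c1 has a near-identical neighbour, Ly6c2, and its value is uncertain for that reason. No vehicle library of Ly6a or Ly6c1 reached 10 counts, so both met the filter at 14 h through IFN-β libraries alone. Their calls were close to fixed by it and add no support to the count of 10 or the median. Whether other relatives called, such as Ly6c2, met the filter in the same way was not examined. Of 16 other factors that act at membranes or with the 10 genes, 4 of 13 tested were higher at 2 h and none lower, beside 5.25% and 2.01% over all genes. At 14 h 7 of 14 were higher and 3 lower, beside 26.2% and 26.3% over all genes. Cmpk2, a nucleotide kinase encoded beside Rsad2, had 6.20 ± 0.518 CPM in vehicle and 287 ± 81.2 CPM with IFN-β at 2 h (log2 5.53 ± 0.226, edgeR adjusted p = 1.01e-06), and the change was 6.53 ± 0.142 at 14 h (adjusted p = 3.75e-13). Ncoa7, which has an interferon-induced form that acts on endosomes, rose at 2 h (log2 1.81 ± 0.234, edgeR adjusted p = 0.00122), and Tmem106a, a membrane protein, at 14 h (log2 5.02 ± 0.188, adjusted p = 1.27e-10). The largest falls at 14 h were small: Fdps, an enzyme of isoprenoid synthesis that viperin binds, fell by 0.39 on the log2 scale (SE 0.112, edgeR adjusted p = 0.0105), and Zmpste24, a protease that works with IFITM proteins, fell by 0.26 (SE 0.0511, adjusted p = 0.000991).

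Genes whose profile over the 16 footprint libraries was nearest to a member were found by the root mean square difference of log2 CPM centred on each gene's own mean, among 10314 genes averaging 50 counts or more. Nearest to Ifitm3 were Gm7676, B2m, the light chain of MHC class I, and Ifitm1, at differences of 0.252, 0.273 and 0.356. Gm7676 shares 28-base stretches with Ifitm1 and Ifitm3, so these profiles may hold some of the same reads. For Bst2 the nearest genes were Ifi35, Trim30d and Phf11d, at 0.437, 0.471 and 0.475. For Rsad2 they were Rtp4, the ubiquitin-like modifier Isg15 and the immunity-related GTPase Iigp1, at 0.450, 0.452 and 0.458. None of the other 9 genes was among the 20 nearest to Bst2 or to Rsad2: the closest of them were Lgals3bp, the 22nd nearest to Bst2 at 0.872, and Mx2, the 25th nearest to Rsad2 at 1.14. This likeness is a description of profiles in which all 4 groups differ, over libraries that share their depth and preparation.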

How the data were processed

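Per the labels and the methods of the study, the authors trimmed reads with Trim Galore 0.4.4, mapped them with Bowtie 0.12.7 to the mm10 (GRCm38) transcriptome of Ensembl 93, removed duplicates and counted footprints in the CDS and total RNA over the whole gene body, in the mode "Union", which discards a read that overlaps more than 1 gene. The strand setting is not given in the sources used here. The deposited values are these raw counts, and 0 columns were left unused.

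Counts were analysed with edgeR 4.0.16 in R 4.3.3. A gene entered a comparison when 4 or more of its libraries held 10 counts or more, with TMM scaling, quasi-likelihood fits and two-sided tests; the threshold was an adjusted p of 0.05, and 0.1 for TE. A standard error is the log2 fold change divided by the square root of its F statistic. CPM used TMM over 16 libraries of a kind, and lengths are those of annotated CDS in GENCODE M21. In total RNA, the TMM factor was 0.435 for vehicle replicate 5 at 2 h and 0.499 for vehicle replicate 3 at 14 h. It was 0.971 to 1.33 for every other total RNA library, so the scaled levels of those 2 are less certain. The fits were tested on simulated data with 200 changed genes. Same-numbered footprint libraries deviated together from their group means (r 0.192 to 0.812 in 8 of 8 pairs). In total RNA this was mixed (r -0.477 to 0.39). Per the methods, replicates came from different mice. Whether the vehicle and IFN-β cultures of one number shared a mouse is not stated, and the main tests did not pair them. The 10 genes, the lists of relatives, other factors and markers, and the rule for named genes (all 10, at most 2 per list, direction and time, and 3 nearest genes for Ifitm3, Bst2 and Rsad2) were chosen with earlier results of these data known. Alternatives were RLE scaling, total counts, DESeq2 1.42.0, no filter, the replicate block and leaving out each library.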

Additional observations from a re-analysis of the deposited data

Results flagged for a closer look

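Among 39 sets of 4 footprint libraries, 2 held a library far from the rest by Dixon's test, which marks about 1 set in 20 by chance. Ifitm3 had 1590 CPM in IFN-β replicate 1 at 14 h, below the other 3 libraries, and Mx2 had 0.619 CPM, or 5 counts, in vehicle replicate 3 at 14 h, above the others. The change at 14 h differed from that at 2 h by a test of the interaction for 8 genes with counts in every group, on the log2 scale by 2.85 for Ifitm1, 0.77 for Ifitm2, 3.20 for Ifitm3, 4.76 for Bst2, 4.54 for Ly6e, 3.33 for Rsad2, 4.14 for Lgals3bp and 5.28 for Lgals9. Of these, Lgals9 entered the test through IFN-β libraries alone.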

How the results depend on the processing

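At 14 h all 10 genes were called higher in every fit in which they were tested, and at 2 h the only call that changed was that of Ly6e, in 4 of 212 fits of single genes. Mx1 and Lgals9 at 2 h, and these and Mx2 at 14 h, could not enter when 1 IFN-β library was left out and 4 libraries were asked for. Fits that asked for 3 libraries were therefore added after the data were seen. Without 1 library, footprint calls over all genes ranged from 519 to 987 at 2 h. Without both 2 h libraries of number 3 they were 1806. The replicate block, which follows the pairing of footprint libraries, gave 3538 calls at 2 h and 6941 for the difference between times, and among the 10 genes it changed no call other than that of Mx2 in that difference. In total RNA, calls among the 10 genes were 4 at 2 h and 5 at 14 h with no filter, and ranged from 0 to 4 and from 0 to 3 without 1 library. Over all genes they were 169 with DESeq2 and 174 with no filter at 2 h, 273 with total counts alone at 14 h, and ranged from 30 to 108 and from 171 to 474 without 1 library. For TE at 2 h, DESeq2 called 2 of the 10 genes and 259 of all genes, total counts alone called 51, and leaving out 1 culture 70 to 155. At 14 h, 0 to 4 of the 10 genes were called without 1 culture. The cause of these shifts was not tested, except that a count of 0 without 1 IFN-β library in total RNA follows from the filter. Low counts limit total RNA and TE of these genes, since most vehicle sums were 3 counts or fewer, and this was so at depths like those of the footprints at 2 h.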
